A study of Mus musculus with 12 samples.

Results

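The genes described here are 51 mouse interferon-stimulated genes, a list of nucleic acid sensors, transcription factors, antiviral effectors, protein-modifying enzymes, GTPases and secreted proteins whose transcription is switched on by interferon. All 51 symbols were found among the 23234 symbols of the deposited expression table. The members studied further were those with a mean of at least 1 FPKM (fragments per kilobase of transcript and per mapped fragments, a level scaled to transcript length and library size) over the 12 libraries: 49 genes of the 10305 that reached this mean. Cxcl9 at 1.12 FPKM and Ddx60 at 1.23 FPKM lay just inside this limit, and Ifi44 at 0.391 FPKM and Cxcl11 at 0.10 FPKM lay outside it. Of the 49, 46 also had a mean of at least 1 FPKM within each of the 4 groups, and Ddx60, Iigp1 and Cxcl9 did not.

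The RNA came from primary acute myeloid leukaemia cells of (FVB/n X C57/BL/6J) F1 strain background and NRASG12V/Mll-AF9 genotype, which carry an activated NRAS together with the MLL-AF9 fusion. Every group, DMSO controls included, had this genotype and was cultured with GM-CSF, a myeloid growth factor, and harvested at 24 h. There were 3 libraries in each of 4 groups: DMSO vehicle, PD325901 at 20 µM, an inhibitor of the kinase MEK, RAD001 at 26 µM, the rapamycin analogue everolimus that inhibits mTOR complexes, and GDC0941 at 20 µM, an inhibitor of class I PI3 kinases. The labels number the libraries of a group 1 to 3 and do not say whether these came from separate animals or cultures, so the tests measure only the spread between these libraries, part of which may be technical. Each compound was used at 1 dose, and there was no untreated or interferon-treated sample.

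Interferons bind receptors on the cell surface that act through JAK kinases and STAT transcription factors. Type I interferon leads to a complex that contains STAT2 and IRF9 and binds the interferon-stimulated response element of target promoters, whereas interferon gamma leads to STAT dimers, which bind a different sequence, the gamma-activated site. Many target genes respond to both, but the guanylate-binding proteins, the immunity-related GTPases, Irf1 and Cxcl9 are known as strong interferon gamma targets, and the Ifit, Oas, Mx and Isg15 genes as type I targets. In myeloid cells a basal level of these transcripts is kept up by weak constant signalling.

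Summed FPKM per library lay between 462335 and 587581, and relative depth, read from the spacing of low values, between 0.847 and 1.21 of DMSO replicate 1. Libraries of a group had Spearman correlations of 0.966 to 0.996 with each other, and libraries of different groups 0.875 to 0.965. The blood and myeloid genes Ptprc, at 114 FPKM over all libraries, and Itgam, at 478 FPKM, were present throughout, whereas Meis1 and Hoxa9, which MLL fusions are known to induce, averaged 2.4 and 1.73 FPKM. RAD001 replicate 1 stood apart from RAD001 replicates 2 and 3 for the interferon-stimulated genes, so the counts of genes called under RAD001 are given with and without it.

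Most of the interferon-stimulated genes were lower under GDC0941. Against DMSO, 39 of the 49 tested members were lower at an adjusted p under 0.05, where 12.7% of all tested genes were, and none was higher, where 11.6% of all genes were (limma on log2(FPKM + 1), adjusted with Benjamini-Hochberg over 10305 genes). The median log2 change of the members was -1.27, beside 0.02 over all tested genes, and 30 members were lower by at least 1 on this scale, which understates changes of genes at a few FPKM. The 3 GDC0941 libraries lay below all 3 DMSO libraries for 44 of the 49, where 18.3% of all tested genes were that separated. They lay below all 9 other libraries for 28, a count whose share over all tested genes was not computed. Among the 39, Ddx60 and Iigp1 averaged 0.288 and 0.148 FPKM under GDC0941 and reached the limit of 1 FPKM through the other groups. In bulk RNA, fewer cells that carry a transcript and less of it per cell cannot be told apart.

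PD325901 left the list, as a whole, near its DMSO level, but with individual genes on both sides. Under RAD001 the median member deviation from the DMSO mean was -1.01, 0.08 and 0.07 in replicates 1, 2 and 3. Individual genes again lay on both sides. Under PD325901, 3 members were lower (Ifitm1, Ifitm3 and Cxcl10) and none was higher, while 28.2% and 18.4% of all tested genes were lower and higher. Under RAD001, 6 members were lower (Ifit2, Gbp3, Cmpk2, Cxcl10, Herc6 and Dhx58) and 2 were higher (Ifitm2 and Ifitm3), while 15.9% and 15.4% of all tested genes were lower and higher. Both inhibitors changed many genes outside the list, so these counts of members, from all libraries, stand below the background. With replicates 2 and 3 alone more members passed in both directions, as given below. The median member change was -0.03 under PD325901 and -0.25 under RAD001, beside -0.06 and 0.004 over all tested genes. Libraries separated from DMSO without overlap for 6 members in each direction under PD325901 (25.8% of all genes higher and 36.9% lower) and for 2 higher and 6 lower under RAD001 (25.3% and 25.6%).

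**Figure D1:**
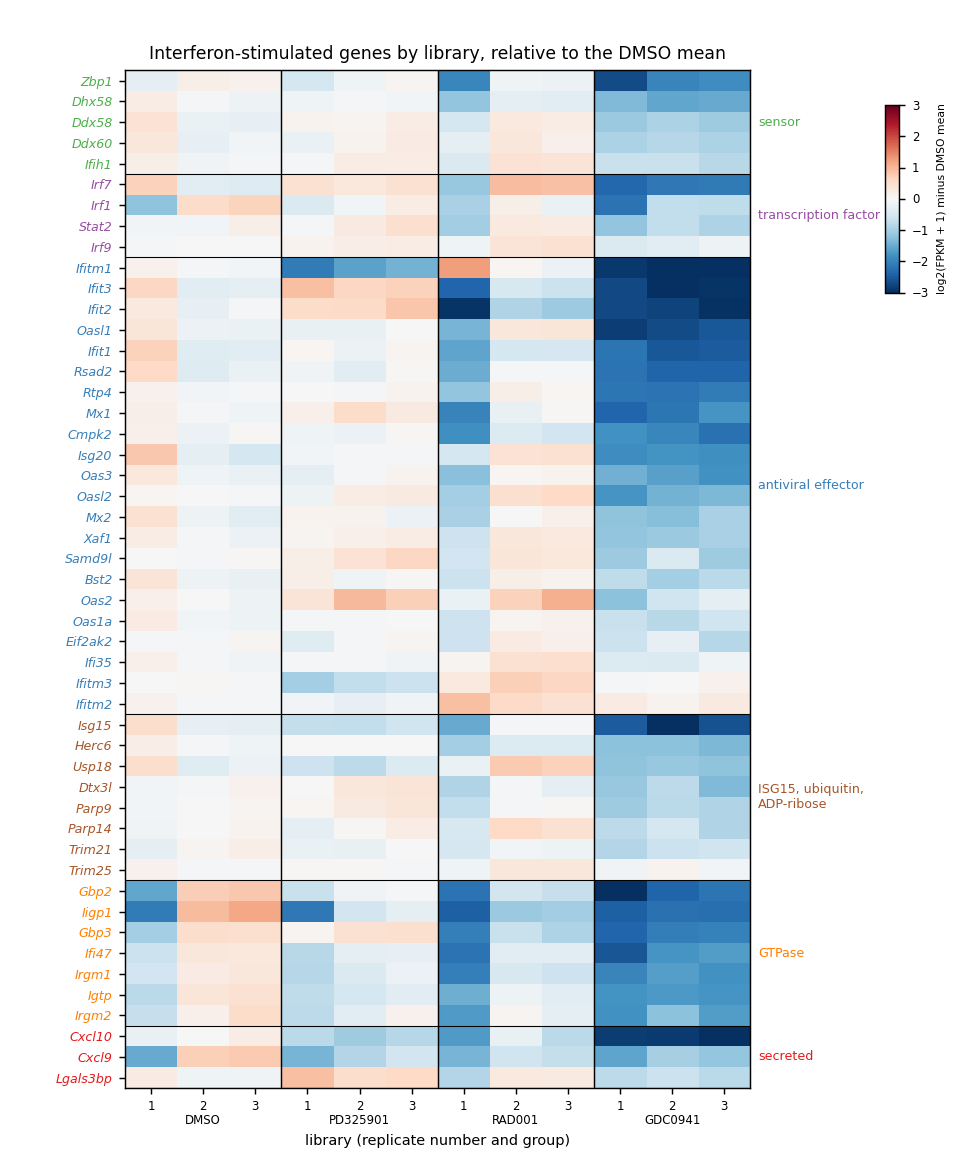
Each row is 1 of the 49 tested interferon-stimulated genes, grouped by role and ordered within a role by the GDC0941 change; each column is 1 library; colour gives log2(FPKM + 1) minus the gene's DMSO mean, with the scale ending at 3 in each direction. The 3 GDC0941 columns and RAD001 replicate 1 are low for most rows, and DMSO replicate 1 is low for the GTPases.

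Column by column, the same difference could be read from single libraries. The median of the 49 members' deviations from their DMSO means was -1.44, -1.23 and -1.34 in GDC0941 replicates 1, 2 and 3, and between -0.09 and 0.08 in the 3 PD325901 libraries. It was -1.01 in RAD001 replicate 1 but 0.08 and 0.07 in RAD001 replicates 2 and 3. Over all tested genes the corresponding medians ran from -0.09 to 0.07, so the low columns were low for these genes and not for the table. One of the GDC0941 libraries was the lowest of the 12 for 44 members, and none of them was the highest for any. GDC0941 replicates 1, 2 and 3 were the lowest for 22, 10 and 12 members, beside 7.5%, 6.1% and 11.5% of all tested genes. They were the highest for 15.9%, 5.9% and 11.1% of all tested genes.

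**Figure D2:**
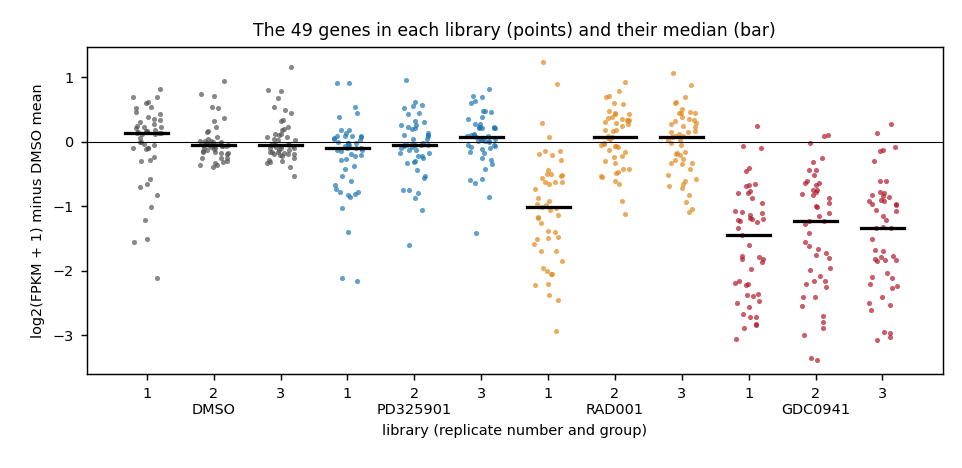
Points are the 49 tested genes in each of the 12 libraries, as log2(FPKM + 1) minus the gene's DMSO mean, and black bars are the library medians. The medians of the GDC0941 libraries and of RAD001 replicate 1 lie at -1.01 or below, and those of the other libraries between -0.09 and 0.14.

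The 5 sensors of foreign nucleic acid were all lower under GDC0941, although Ddx60 reached the limit of 1 FPKM only through the other groups. Zbp1, which binds left-handed double helices and can trigger cell death, read 71.8, 99.8 and 96.4 FPKM in DMSO, 61, 80.6 and 93.3 under PD325901, 22, 81 and 77.9 under RAD001 and 13, 21.6 and 23.8 under GDC0941. Its GDC0941 libraries were below every DMSO and PD325901 library (log2 change -2.17, SE 0.42, adjusted p = 0.0038), and RAD001 replicate 1 fell among them. Dhx58, the regulatory RIG-I-like receptor LGP2, was at 41.5, 34.2 and 31.7 FPKM in DMSO, 32.6, 34.2 and 33.6 under PD325901, 15.2, 28.7 and 28.1 under RAD001 and 13.5, 11.4 and 11.9 under GDC0941. This gene was stepwise lower, with all RAD001 libraries under all DMSO libraries (log2 change -0.60, SE 0.20, adjusted p = 0.038) and all GDC0941 libraries lower still (log2 change -1.47, SE 0.20, adjusted p = 0.00058). The other 3 sensors passed in the comparison of GDC0941 with DMSO and in neither of the other comparisons with DMSO.

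Ddx58, which encodes the RNA sensor RIG-I, had 23, 14.5 and 14 FPKM in DMSO, 17.9, 17.8 and 19.6 under PD325901, 11.3, 20.6 and 19.8 under RAD001 and 7.22, 8.14 and 7.42 under GDC0941. Ifih1, encoding the long-RNA sensor MDA5, had 9.51, 7.69 and 7.89 FPKM in DMSO, 8.17, 9.88 and 9.88 under PD325901, 5.87, 11.6 and 11.2 under RAD001 and 4.86, 4.86 and 4.23 under GDC0941. Both were lowest in the 3 GDC0941 libraries, with log2 changes of -1.05 and -0.72, and both had RAD001 replicate 1 below DMSO while RAD001 replicates 2 and 3 were within or above the DMSO range. Ddx60, a helicase linked to RIG-I signalling and the least abundant sensor, had 2.09, 1.05 and 1.3 FPKM in DMSO, 1.11, 1.63 and 1.88 under PD325901, 1.0, 2.07 and 1.73 under RAD001 and 0.262, 0.342 and 0.259 under GDC0941, and its GDC0941 libraries were again below the other 9.

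Of the 4 transcription factors, Irf7 and Stat2 were lower under GDC0941, and Irf1 and Irf9 did not pass. Irf7, the factor that drives transcription of the interferon alpha genes, read 264, 131 and 123 FPKM in DMSO, 221, 201 and 223 under PD325901, 73.4, 308 and 299.9 under RAD001 and 30.8, 35.6 and 36.6 under GDC0941. Its GDC0941 values were tightly grouped at 34.3 ± 3.12 FPKM (SD, n = 3), and the DMSO mean was 5.03 times as high (log2 change -2.21, SE 0.46, adjusted p = 0.0058). The same gene was about equally high in RAD001 replicates 2 and 3, above every DMSO library, and low in RAD001 replicate 1. Stat2, a subunit of the complex formed in the type I interferon response, read 26.1, 26.1 and 31.7 FPKM in DMSO, 26.8, 33.7 and 39.3 under PD325901, 12.9, 34.5 and 33.1 under RAD001 and 11.7, 16.3 and 14.3 under GDC0941. It was lower in every GDC0941 library than in any DMSO library (log2 change -0.95, SE 0.30, adjusted p = 0.04), and RAD001 replicate 1 was at the GDC0941 level.

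Irf1, an early interferon gamma target and itself an activator of GTPase genes, read 29.3, 101 and 111 FPKM in DMSO, 51.3, 65.3 and 80.4 under PD325901, 34.8, 77.8 and 59.9 under RAD001 and 14.2, 40.9 and 40.1 under GDC0941. DMSO replicate 1 was lower than 2 of the 3 GDC0941 libraries, so the groups overlapped and the difference did not pass (log2 change -1.24, SE 0.52, adjusted p = 0.11). Irf9, the DNA-binding subunit of the type I complex, read 35.7, 36.8 and 37.1 FPKM in DMSO, 39.1, 42.1 and 43 under PD325901, 33.1, 47.8 and 50.3 under RAD001 and 26.6, 29.1 and 32.9 under GDC0941. Its GDC0941 libraries were below the other 9, but by a small amount (log2 change -0.30, SE 0.14, adjusted p = 0.13).

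Of the 22 antiviral effectors tested, 17 were lower under GDC0941, with a median log2 change of -1.56, and Ifitm1 and Ifit3 among them had the largest falls of the 49 members. Ifitm1, a membrane protein of the family that blocks fusion of enveloped viruses, read 154, 136 and 133 FPKM in DMSO, 31.9, 45.7 and 52.2 under PD325901, 334, 146 and 125 under RAD001 and 18.1, 12.9 and 15.8 under GDC0941. It fell under GDC0941, where the DMSO mean was 9.02 times as high (log2 change -3.10, SE 0.31, adjusted p = 8.9e-05), and under PD325901 (log2 change -1.70, SE 0.31, adjusted p = 0.001). RAD001 replicate 1 went the other way and was at least double each of the other RAD001 libraries, the only member of which this was true.

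The other 2 Ifitm genes moved differently. Ifitm3, the most abundant member, read 1252, 1299 and 1229.5 FPKM in DMSO, 621, 751 and 806 under PD325901, 1538, 2072 and 1933 under RAD001 and 1203, 1244 and 1389 under GDC0941. It fell under PD325901 (log2 change -0.80, SE 0.13, adjusted p = 0.0005), rose under RAD001 (log2 change 0.54, SE 0.13, adjusted p = 0.0087; log2 change 0.20 and adjusted p = 0.27 after quantile normalization) and overlapped DMSO under GDC0941 (log2 change 0.02, SE 0.13, adjusted p = 0.94). Ifitm2 read 302, 264 and 267 FPKM in DMSO, 260.2, 232 and 258 under PD325901, 515, 416 and 383 under RAD001 and 328, 297 and 336 under GDC0941. It rose under RAD001 (log2 change 0.65, SE 0.11, adjusted p = 0.0016), with all RAD001 libraries above all DMSO libraries, and it was the only member besides Ifitm1 with its highest RAD001 value in replicate 1. These 3 genes are close relatives in sequence, as are the Ifit, Oas and Gbp genes with their neighbours, so the counting behind the FPKM may have divided shared reads among them.

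The Ifit genes, whose products bind foreign RNA and hold back its translation, fell steeply under GDC0941. Ifit1 read 25.4, 11.7 and 12 FPKM in DMSO, 15.9, 13.5 and 16.4 under PD325901, 4.48, 10.4 and 10.4 under RAD001 and 2.59, 1.82 and 1.89 under GDC0941. Ifit2 read 25.6, 17.4 and 20.3 FPKM in DMSO, 30.9, 31.3 and 37.6 under PD325901, 1.85, 10.6 and 9.25 under RAD001 and 2.32, 2.16 and 1.8 under GDC0941. Ifit3 read 38.1, 19.4 and 19.8 FPKM in DMSO, 46.9, 38.2 and 40.3 under PD325901, 3.91, 17.2 and 15.2 under RAD001 and 2.89, 1.46 and 2.31 under GDC0941. GDC0941 libraries were at 3 FPKM or less for all 3 genes, with log2 changes of -2.41, -2.82 and -3.01. All RAD001 libraries were also below all DMSO libraries for each of them, a difference that passed for Ifit2 (log2 change -1.64, SE 0.41, adjusted p = 0.011) and missed the threshold for Ifit1 (adjusted p = 0.054) and Ifit3 (adjusted p = 0.058). PD325901 libraries were above all DMSO libraries for Ifit2 and Ifit3, by 0.65 and 0.74 on the log2 scale, without passing (adjusted p = 0.22 and 0.18).

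The Mx genes encode dynamin-like GTPases that trap viral nucleocapsids. Mx1 read 28.8, 24.5 and 23.2 FPKM in DMSO, 28.2, 37.9 and 31 under PD325901, 5.6, 21.5 and 26 under RAD001 and 4.08, 4.91 and 6.69 under GDC0941. Mx2 read 7.03, 4.24 and 3.68 FPKM in DMSO, 5.22, 5.29 and 4.19 under PD325901, 1.98, 4.77 and 5.5 under RAD001 and 1.52, 1.42 and 1.97 under GDC0941. Both fell under GDC0941, by 2.11 and 1.15 on the log2 scale, and RAD001 replicate 1 held the lowest value outside the GDC0941 group in both.

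Among the oligoadenylate synthetases, which make the second messenger of RNase L, and their relatives, the response to GDC0941 was unequal. Oasl1, known to hold back translation of Irf7 in mouse cells, read 28.7, 19.5 and 19.3 FPKM in DMSO, 18.8, 18.8 and 22.1 under PD325901, 7.77, 28.5 and 28.6 under RAD001 and 2.27, 2.57 and 2.99 under GDC0941. Oasl2 read 56.7, 53.8 and 52.9 FPKM in DMSO, 49.1, 63.7 and 65.9 under PD325901, 26.5, 76 and 82.9 under RAD001 and 15.3, 19.9 and 20.9 under GDC0941. Oas3 read 44.6, 32.6 and 31.1 FPKM in DMSO, 29.2, 34.4 and 38.4 under PD325901, 14.3, 37 and 38.2 under RAD001 and 12.5, 10.9 and 9.42 under GDC0941. All 3 were below every other library under GDC0941, with log2 changes of -2.68, -1.50 and -1.62. Oas1a read 76.2, 61.1 and 57.7 FPKM in DMSO, 61.7, 62.8 and 65.2 under PD325901, 41.4, 68.2 and 70.5 under RAD001 and 40.0, 35.9 and 42.2 under GDC0941, a smaller fall (log2 change -0.70). Oas2 read 21.9, 19.7 and 17.4 FPKM in DMSO, 25.9, 39.1 and 32.8 under PD325901, 17, 32.5 and 42.1 under RAD001 and 7.81, 12.5 and 15.8 under GDC0941. Its GDC0941 libraries were below all others but varied from 7.81 to 15.8 FPKM, and the difference did not pass (log2 change -0.71, SE 0.30, adjusted p = 0.11). The same gene was higher in every PD325901 library than in DMSO (log2 change 0.69, SE 0.30, adjusted p = 0.086, and adjusted p = 0.034 when same-numbered libraries were paired).

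Rsad2, which encodes viperin, a producer of chain-terminating nucleotides, read 23.8, 11.6 and 13.2 FPKM in DMSO, 14.3, 12.2 and 15.7 under PD325901, 4.84, 14.8 and 14.8 under RAD001 and 2.56, 2.11 and 2.09 under GDC0941. Cmpk2, a mitochondrial nucleotide kinase that neighbours Rsad2 in the genome, read 16.3, 13 and 15 FPKM in DMSO, 13.4, 13 and 15.2 under PD325901, 3.36, 10.7 and 9.53 under RAD001 and 3.46, 3.04 and 2.35 under GDC0941. The pair fell together under GDC0941, by 2.34 and 2.00 on the log2 scale, but under RAD001 only Cmpk2 passed (log2 change -0.95, SE 0.29, adjusted p = 0.03, beside adjusted p = 0.27 for Rsad2; whether the 2 differed in this was not tested). Isg20, an exonuclease of viral RNA, read 18.4, 8.02 and 6.68 FPKM in DMSO, 9.36, 9.65 and 9.52 under PD325901, 6.69, 13.8 and 14 under RAD001 and 2.02, 2.17 and 2.08 under GDC0941. Its GDC0941 libraries lay within 0.15 FPKM of each other (log2 change -1.83), while DMSO replicate 1 was more than double the other DMSO libraries.

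Bst2, or tetherin, which holds budding virions at the cell surface, read 488, 333 and 319 FPKM in DMSO, 424, 340.3 and 382 under PD325901, 237, 424 and 399 under RAD001 and 220.2, 184 and 214 under GDC0941. Rtp4, a regulator of the interferon response in myeloid cells, read 64.4, 54.8 and 56.7 FPKM in DMSO, 58.2, 56.1 and 63.3 under PD325901, 25.4, 66.4 and 61.4 under RAD001 and 12.3, 11.9 and 13 under GDC0941. Xaf1, a pro-apoptotic partner of the inhibitor XIAP, read 37, 30.6 and 27.7 FPKM in DMSO, 33.3, 34.9 and 36.8 under PD325901, 20.0, 40.0 and 38.8 under RAD001 and 13.3, 14.2 and 15.4 under GDC0941. Rtp4 was the most uniform of these 3, with GDC0941 libraries at 12.4 ± 0.526 FPKM against 58.7 ± 5.12 FPKM in DMSO (SD, n = 3; log2 change -2.15, SE 0.27, adjusted p = 0.00039). Bst2 and Xaf1 also fell, by 0.86 and 1.09 on the log2 scale.

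Samd9l, which restricts translation in virus-infected cells, read 24.5, 23.9 and 25.2 FPKM in DMSO, 28, 33.3 and 38.4 under PD325901, 16.3, 32.1 and 31 under RAD001 and 11, 17.9 and 11.2 under GDC0941, and passed under GDC0941 with a log2 change of -0.86. Eif2ak2, the double-stranded RNA kinase PKR, read 17.4, 17.7 and 19.1 FPKM in DMSO, 13.8, 17.4 and 19.3 under PD325901, 11.3, 21.6 and 20.2 under RAD001 and 11.1, 15.1 and 9.54 under GDC0941. Ifi35, a cytoplasmic partner of Nmi, read 40.2, 34.4 and 33.4 FPKM in DMSO, 34.4, 34.6 and 33.1 under PD325901, 37.7, 49.5 and 51.6 under RAD001 and 26.9, 26.2 and 32.9 under GDC0941. For these last 2 all GDC0941 libraries were below all DMSO libraries, but neither difference passed (adjusted p = 0.078 and 0.087). Ifi44, under the limit of 1 FPKM, averaged 0.399 FPKM in DMSO and 0.0715 FPKM under GDC0941 and was not tested.

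Enzymes of ISG15, ubiquitin and ADP-ribose modification were lower under GDC0941 for 7 of 8. Isg15, the ubiquitin-like protein that is joined to other proteins, read 187, 109 and 106 FPKM in DMSO, 77.7, 76.4 and 85.6 under PD325901, 44.8, 126 and 127 under RAD001 and 22.1, 15.3 and 20.3 under GDC0941. Its GDC0941 libraries were at 19.2 ± 3.54 FPKM (SD, n = 3), and the DMSO mean was 6.96 times as high (log2 change -2.70, SE 0.35, adjusted p = 0.00048). All PD325901 libraries were below all DMSO libraries as well, without passing (log2 change -0.69, SE 0.35, adjusted p = 0.13). Usp18, which removes ISG15 and restrains the type I receptor, read 45.6, 24 and 27.5 FPKM in DMSO, 20.0, 17.6 and 23 under PD325901, 27, 54.4 and 50.9 under RAD001 and 13, 13.5 and 12.8 under GDC0941. It fell under GDC0941 (log2 change -1.19, SE 0.26, adjusted p = 0.0076), and RAD001 replicates 2 and 3 were above every DMSO library.

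Herc6, the ISG15 ligase of mouse cells, read 7.96, 6.51 and 6.2 FPKM in DMSO, 6.75, 6.77 and 6.91 under PD325901, 2.87, 4.89 and 4.87 under RAD001 and 2.32, 2.34 and 2.1 under GDC0941. Like Dhx58 it was lower under RAD001 in every library (log2 change -0.62, SE 0.15, adjusted p = 0.0098) and lower again under GDC0941 (log2 change -1.27, SE 0.15, adjusted p = 0.00029). Parp9 and Dtx3l, which form a complex that modifies histones and viral proteins, read 18.2, 19.5 and 20.6 FPKM in DMSO, 20.3, 23.4 and 25.2 under PD325901, 11.3, 18.8 and 19.8 under RAD001 and 8.7, 10.7 and 9.85 under GDC0941 for Parp9. Dtx3l read 17.5, 18.3 and 20.4 FPKM in DMSO, 18.4, 23.7 and 24.9 under PD325901, 9.49, 17.8 and 15.5 under RAD001 and 7.96, 10.5 and 6.91 under GDC0941. The log2 changes of this pair under GDC0941 were -0.93 and -1.08, and neither passed under PD325901 or RAD001.

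Parp14, a mono-ADP-ribosyltransferase, read 19.5, 21.2 and 23 FPKM in DMSO, 17.4, 21.8 and 25.1 under PD325901, 14.8, 32.5 and 29.4 under RAD001 and 11.9, 14.5 and 10.9 under GDC0941. Trim21, a ubiquitin ligase and cytosolic antibody receptor, read 6.49, 8.59 and 9.51 FPKM in DMSO, 6.97, 6.84 and 8.2 under PD325901, 5.41, 7.65 and 7.17 under RAD001 and 3.97, 4.87 and 4.98 under GDC0941. Both fell under GDC0941, by 0.73 and 0.70 on the log2 scale. Trim25, the ubiquitin ligase that acts on RIG-I, read 41.3, 35.8 and 35.7 FPKM in DMSO, 38.4, 38.7 and 36.4 under PD325901, 34, 47.5 and 48 under RAD001 and 34.9, 40.5 and 35.4 under GDC0941. Its groups overlapped, and its log2 change under GDC0941 was -0.02 with an SE of 0.12.

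All 7 GTPases, of families that defend against intracellular pathogens, were lower under GDC0941, with a median log2 change of -2.00. Iigp1 among them reached the limit of 1 FPKM only through the other groups. The guanylate-binding protein Gbp2 read 11.8, 62.1 and 64.8 FPKM in DMSO, 22.7, 34.1 and 35.3 under PD325901, 7.09, 24.8 and 22.5 under RAD001 and 3.55, 6.12 and 7.18 under GDC0941. Its relative Gbp3 read 6.39, 20.3 and 19.8 FPKM in DMSO, 14.7, 19.3 and 19.6 under PD325901, 2.59, 8.4 and 6.82 under RAD001 and 1.84, 2.51 and 2.62 under GDC0941. GDC0941 libraries were below all DMSO and PD325901 libraries for both (log2 change -2.55, SE 0.60, adjusted p = 0.01 for Gbp2), although DMSO replicate 1 was already far below the other DMSO libraries. Gbp3 was also lower under RAD001 (log2 change -1.21, SE 0.41, adjusted p = 0.044).

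Among the immunity-related GTPases, Irgm1 was the most abundant and read 50.6, 89.8 and 96.7 FPKM in DMSO, 41.9, 56 and 67.6 under PD325901, 17.6, 54.5 and 49.5 under RAD001 and 18.7, 23.5 and 20.7 under GDC0941. Irgm2 read 7.76, 14.7 and 19.7 FPKM in DMSO, 7.27, 10.2 and 14.5 under PD325901, 3.39, 14.1 and 10.7 under RAD001 and 3.03, 5.04 and 3.44 under GDC0941. Igtp, also called Irgm3, read 16.6, 39 and 41.3 FPKM in DMSO, 17.2, 20.6 and 23.5 under PD325901, 10.2, 26.8 and 23.8 under RAD001 and 7.97, 8.37 and 8.09 under GDC0941. Under GDC0941 these 3 regulatory members had log2 changes of -1.82, -1.57 and -1.76. The effector Ifi47 read 34, 68.1 and 67.8 FPKM in DMSO, 30.0, 43.8 and 45.2 under PD325901, 10.9, 42.6 and 42.5 under RAD001 and 8.36, 15.3 and 16.1 under GDC0941, and the effector Iigp1 read 0.336, 10.0 and 11.9 FPKM in DMSO, 0.294, 2.9 and 3.74 under PD325901, 0.0496, 1.64 and 1.78 under RAD001 and 0.0426, 0.213 and 0.189 under GDC0941. They passed under GDC0941 with log2 changes of -2.00 and -2.32, with an SE of 0.77 for the second, in which replicate 1 was the lowest library of every group.

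Of the secreted members, only Cxcl10 passed under GDC0941. This ligand of Cxcr3, a chemokine receptor of T cells, read 16.6, 19.7 and 23.2 FPKM in DMSO, 10.8, 8.89 and 10.4 under PD325901, 5.41, 16.7 and 10.7 under RAD001 and 1.88, 1.81 and 1.53 under GDC0941. It was the member lowered by all 3 inhibitors, by 0.91 under PD325901 (adjusted p = 0.02), 0.91 under RAD001 (adjusted p = 0.029) and 2.92 under GDC0941 on the log2 scale (log2 change -2.92, SE 0.28, adjusted p = 7.4e-05). Cxcl9, a second Cxcr3 ligand, read 0.085, 4.07 and 4.31 FPKM in DMSO, 0.17, 0.684 and 1.06 under PD325901, 0.176, 1.02 and 0.884 under RAD001 and 0.0216, 0.538 and 0.383 under GDC0941. DMSO replicate 1 overlapped the treated libraries and no difference passed, although pairing by number put it lower under PD325901 (adjusted p = 0.031) and under RAD001 (adjusted p = 0.05).

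Lgals3bp, a secreted galectin-binding glycoprotein, read 179, 137 and 141 FPKM in DMSO, 285, 219 and 231 under PD325901, 82.6, 187 and 184 under RAD001 and 87.3, 96.7 and 85.5 under GDC0941. It was above every DMSO library under PD325901 (log2 change 0.68, SE 0.26, adjusted p = 0.05) and below every DMSO library under GDC0941 (log2 change -0.75, SE 0.26, adjusted p = 0.056), both just short of the threshold. Cxcl11 was detected in all 3 DMSO libraries at 0.529 FPKM or less and was listed at 0 in every PD325901 and GDC0941 library.

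**Figure D3:**
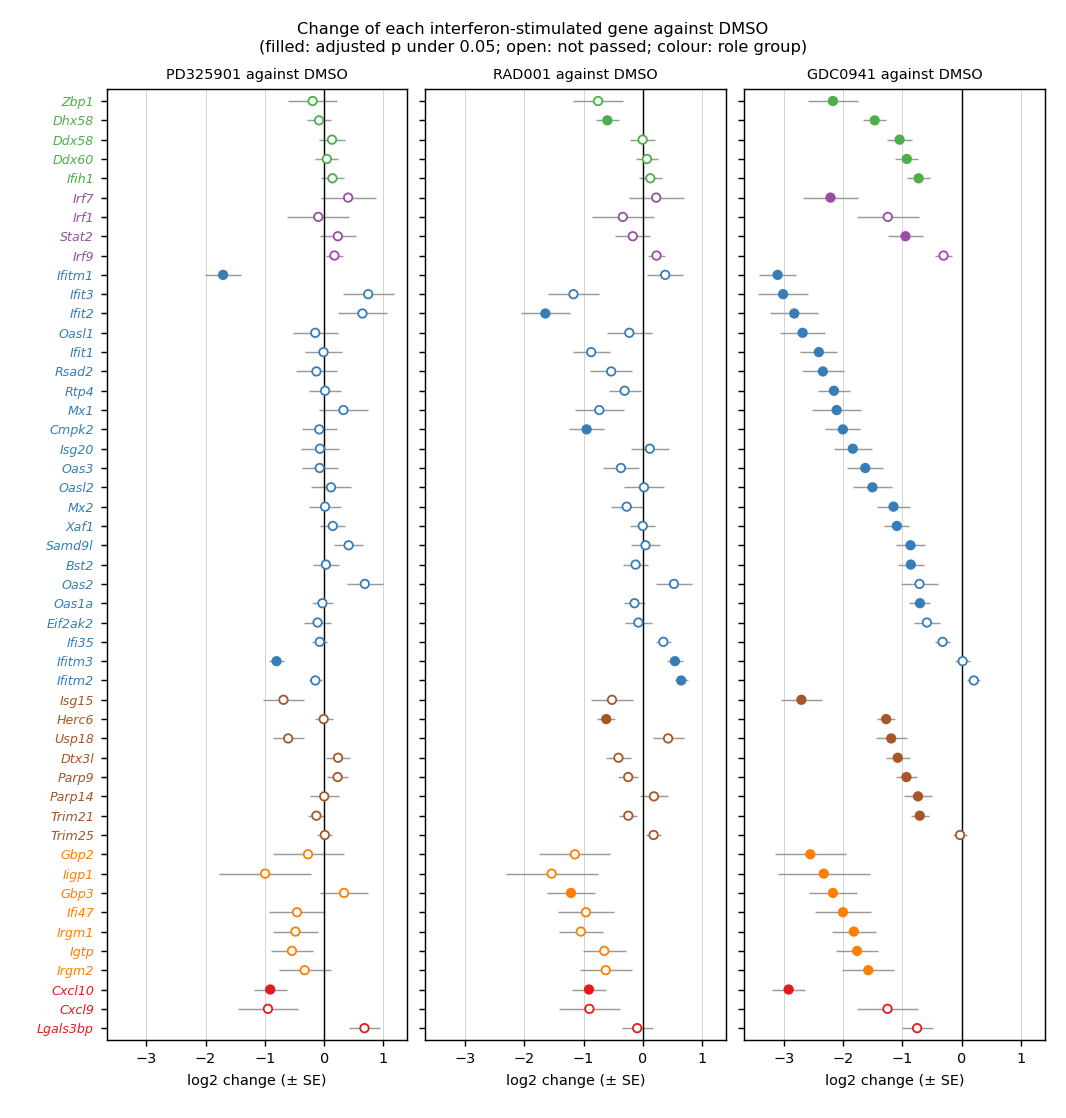
Each row is 1 tested gene and each panel 1 inhibitor; the x axis is the log2 change against DMSO on the log2(FPKM + 1) scale, bars are SE, filled points had an adjusted p under 0.05 and colours are role groups as in the map of members by library. Filled points lie left of zero for 39 genes under GDC0941, for 3 under PD325901 and for 6 under RAD001.

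**Figure D4:**
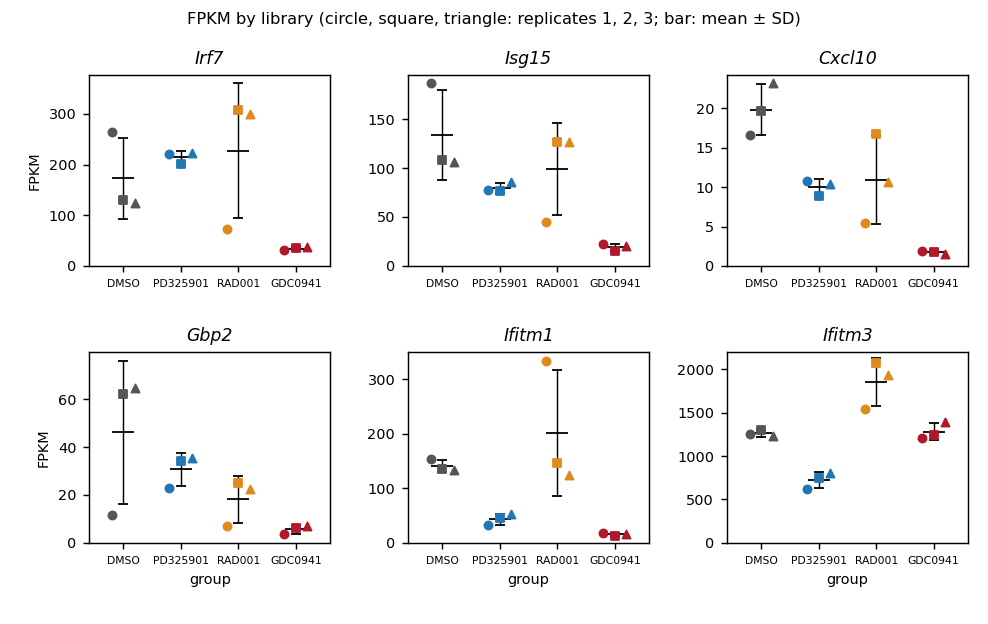
FPKM in each library for 6 members, with replicates 1, 2 and 3 as circles, squares and triangles and black bars for mean ± SD (n = 3). Irf7, Isg15, Cxcl10 and Gbp2 are lowest under GDC0941, Ifitm1 is low under both PD325901 and GDC0941, and Ifitm3 is lowest under PD325901.

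Most calls did not rest on 1 library. Leaving out each of the 12 libraries in turn, 31 of the 39 members lower under GDC0941 passed every time. The count lower ran from 34 to 44, beside 9.25% to 17.1% of all genes. Of the other 8, Stat2 and Parp14 missed the threshold without any one of the DMSO or GDC0941 libraries or without PD325901 replicate 2 or 3, Parp14 also without RAD001 replicate 3 (adjusted p up to 0.12 and 0.14), and Samd9l without any DMSO library or GDC0941 replicate 1 or 3 (up to 0.086). Iigp1 missed it without DMSO replicate 2 or 3, any GDC0941 library, or replicate 2 or 3 of PD325901 or RAD001 (up to 0.17), and Irgm2 without DMSO replicate 2 or 3 or GDC0941 replicate 1 or 3 (up to 0.091). Bst2 and Oas1a missed it without DMSO replicate 1 or GDC0941 replicate 2 (up to 0.055 and 0.054), and Ifih1 without DMSO replicate 1 or GDC0941 replicate 3 (up to 0.071).

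The calls against DMSO under the other inhibitors were less stable to this. Under PD325901, Ifitm1 and Ifitm3 passed every time, and Cxcl10 missed the threshold without DMSO replicate 3 or PD325901 replicate 2 (adjusted p up to 0.071). The counts under PD325901 moved to 6 lower without DMSO replicate 1, beside 24.8% of all genes. They moved to 4 higher and 5 lower without RAD001 replicate 1, beside 19.4% and 29.2%. Leaving out that RAD001 library adds Ifit2, Ifit3, Lgals3bp and Oas2 to the higher and Isg15 and Usp18 to the lower. It enters this comparison because all groups share 1 estimate of the spread. Under RAD001, Ifit2, Herc6, Ifitm2 and Ifitm3 passed every time. Gbp3 missed the threshold without any of 9 libraries, most clearly without DMSO replicate 2 (up to 0.16), Dhx58 without any of 6 (up to 0.12), Cmpk2 without any DMSO library (up to 0.08) and Cxcl10 without DMSO replicate 2 or 3 or RAD001 replicate 3 (up to 0.1). Only 2 members were lower without DMSO replicate 2 or without DMSO replicate 3, beside 11.1% and 11% of all genes.

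The promoters of many members carry the elements through which interferon acts. The members were listed as interferon-stimulated genes, so their share of such elements is not independent of how the list was chosen. The 8 genes printed below are examples chosen with these results known, and all but Irf1 of them were lower under GDC0941. RefSeq promoter windows of GRCm38.p6, from 250 bases before to 50 bases after the start, were found for 40 of the 51 members. The core of the interferon-stimulated response element, searched as GAAANNGAAA on both strands, was in 21 of these 40 (52.5%) and in 3.99% of the 27025 genes with a window. The gamma-activated site, searched as TTCNNNGAA, which reads the same on both strands, was in 10 of the 40 (25%) and in 9.55% of all genes. The 2 motifs can overlap by a few bases and 6 members held both. Among tested members, 14 of 15 with the response element alone were lower under GDC0941 (median log2 change -1.82), 4 of 6 with both (-0.78), 2 of 4 with the gamma-activated site alone (-1.54) and 10 of 14 with neither (-1.26). Whether these shares differ was not tested. A match is a description of the sequence and not a mapped binding site, and a window without one says only that these letters are not in it.

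The stretches below are upstream of the start and read 5′ to 3′ on the strand of the gene, with the matched motif in capitals; a TTTC form is the same element on the other strand. The first 5 genes hold the response element, the last 3 a gamma-activated site.
Isg15: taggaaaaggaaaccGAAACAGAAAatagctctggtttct
Ifit1: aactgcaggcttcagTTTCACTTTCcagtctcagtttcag
Rsad2: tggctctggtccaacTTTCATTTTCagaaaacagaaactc
Cxcl10: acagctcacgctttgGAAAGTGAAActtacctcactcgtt
Gbp2: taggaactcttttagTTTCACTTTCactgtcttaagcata
Igtp: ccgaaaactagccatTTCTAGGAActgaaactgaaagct
Irgm2: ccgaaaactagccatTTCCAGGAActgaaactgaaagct
Irf1: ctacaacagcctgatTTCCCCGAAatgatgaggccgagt
The Isg15 stretch is chr4:156200860-156200899 on the minus strand, with its motif ending 56 bases before the start. Ifit1 is chr19:34640770-34640809 on the plus strand, Rsad2 chr12:26456548-26456587 on the minus strand and Cxcl10 chr5:92349078-92349117 on the minus strand. Gbp2 is chr3:142620589-142620628, Igtp chr11:58199496-58199534, Irgm2 chr11:58214887-58214925 and Irf1 chr11:53769909-53769947, all on the plus strand. In both Igtp and Irgm2 the capitals are followed closely by the letters of a response element, whose own match lies 24 and 54 bases before the start.

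RAD001 replicate 1 departed from its group over nearly the whole list. It was the lowest RAD001 library for 47 of the 49 members, where 39.7% of all tested genes had it lowest, and it was at most 0.5 of each of the other RAD001 values for 25, where 2.20% of all genes were. The exceptions were Ifitm1 and Ifitm2, in which it was the highest. Its median difference from the mean of replicates 2 and 3 was -1.04 on the log2 scale. It lay below all 3 DMSO libraries for 41 members (37.9% of all genes) and was nearer to the GDC0941 mean than to RAD001 replicates 2 and 3 for 43 (46.1% of all genes). RAD001 replicates 2 and 3 were instead both above all DMSO libraries for 16 members, both below them for 6 and both within their range for 21. The shares of all tested genes for these last counts were not computed, so they describe the members alone.

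The calls under RAD001 depended on this library. Without it, 11 members were higher than DMSO and 4 lower, with 15.3% and 16.3% of all genes. The 11 were Irf7, Oas2, Usp18, Ifitm3, Oasl2, Parp14, Ifitm2, Ifi35, Ifih1, Irf9 and Trim25, led by Irf7 with a log2 change of 0.90 (SE 0.26, adjusted p = 0.023). The 4 were Ifit2, Cxcl10, Cmpk2 and Herc6. Among 22 antiviral effectors 5 were then higher and 2 lower, and none of the 7 GTPases passed. The summed neutrophil markers were at 23498 FPKM in RAD001 replicate 1 and 19063 to 19110 FPKM in the other RAD001 libraries. The monocyte marker Fcgr1, itself interferon-inducible, was at 8.6, 60.3 and 57 FPKM in RAD001 replicates 1, 2 and 3. The summed monocyte and macrophage markers, which include Fcgr1, went the other way, at 2446, 2330 and 2200 FPKM. The part of these markers in the result was not tested.

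Deviations from group means of same-numbered RAD001 and DMSO libraries correlated above 0.1. Just 1 of the 3 RAD001 libraries, however, correlated best with the DMSO library of its own number. Whether these libraries are truly paired is therefore not known. Pairing them by number gave 12 lower and 2 higher members under RAD001 (18.4% and 17.6% of all genes). The lower members then took in 5 of the 7 GTPases, with Gbp2 at adjusted p = 0.016, Ifi47 at 0.0071, Irgm1 at 0.0049, Iigp1 at 0.025 and Gbp3 at 0.0034, and the sensor Zbp1 at 0.035. Under PD325901 pairing gave 4 lower and 1 higher (30.5% and 20.4% of all genes), adding Cxcl9 and Oas2.

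DMSO replicate 1 also differed from DMSO replicates 2 and 3, in a way that split the list. Its median absolute difference from their mean was 0.42 on the log2 scale, whereas replicates 2 and 3 differed from each other by a median of 0.08. It was the lowest DMSO library for 18 members and the highest for 29, beside 41.2% and 41.8% of all tested genes. The 7 GTPases, Irf1, Cxcl9 and Trim21 were among those with a low value, and Gbp2 in replicate 1 was 0.186 of the mean of the other 2. Isg20, Ifit1 and Irf7 were at 2.5, 2.14 and 2.08 times that mean.

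Interferon gamma transcripts and lymphocyte markers moved with this split. Ifng was listed at 0 in DMSO replicate 1 and at 1.04 and 1.45 FPKM in DMSO replicates 2 and 3. It was also at 0 in PD325901 replicate 1 and GDC0941 replicate 1, and at 0.133 FPKM in RAD001 replicate 1 beside 0.559 and 0.515 FPKM in RAD001 replicates 2 and 3. The summed level of 7 T and NK cell markers was 0.373 FPKM in DMSO replicate 1 and 4.82 and 4.76 FPKM in replicates 2 and 3, and it was lowest in replicate 1 of each other group, with ranges of 4.93 to 8.80 under PD325901, 0.372 to 2.64 under RAD001 and 0.133 to 1.48 under GDC0941. The markers Cd3e, Cd8a and Ncr1 were at 0 in DMSO replicate 1. The part of these transcripts in the GTPase result was not tested.

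**Figure D5:**
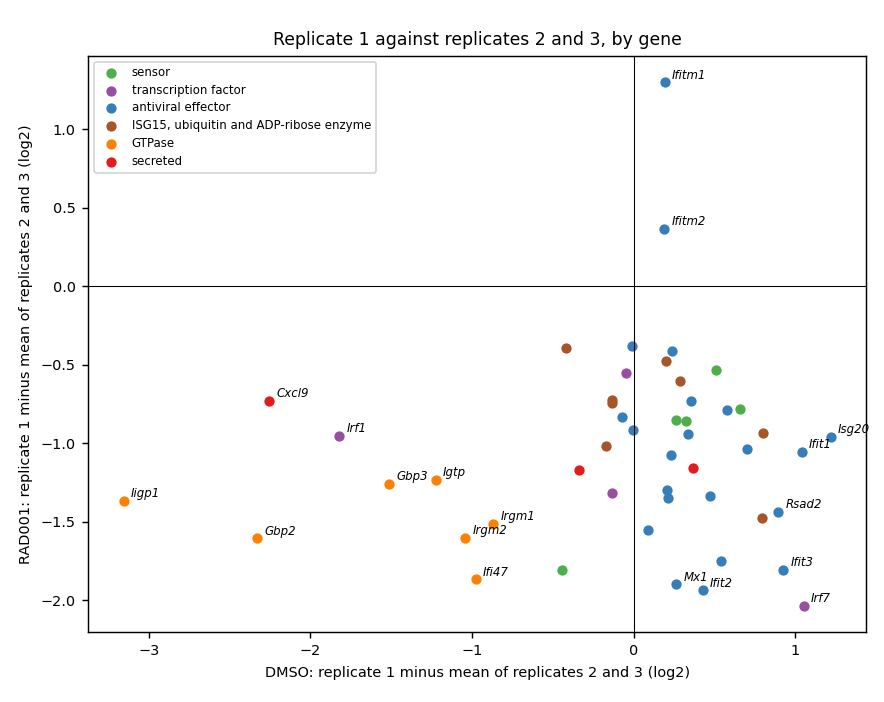
Each point is 1 of the 49 tested genes, coloured by role; the x axis is replicate 1 minus the mean of replicates 2 and 3 in DMSO, and the y axis is the same difference under RAD001, both in log2(FPKM + 1). Along the x axis the GTPases, Irf1 and Cxcl9 lie left of zero and Irf7, Ifit1 and Isg20 right of it; along the y axis 47 of the 49 points lie below zero.

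With replicates 2 and 3 alone, which lie close together and may share a source, more members passed in both directions under PD325901 and RAD001. The DMSO group then lacked replicate 1, in which the GTPases were low and Irf7 and Ifit1 high. Under PD325901, 17 members were higher and 12 lower than DMSO (22% and 33.2% of all genes), the higher ones led by Ifit3 with a log2 change of 0.97, Oas2 at 0.91, Ifit2 at 0.84 and Irf7 at 0.73. The lower ones held 5 of 7 GTPases, with Iigp1 at -1.47 and Gbp2 at -0.85. Under RAD001, 18 were higher and 14 lower (22.8% and 24.2% of all genes), with Irf7 at 1.25, Usp18 at 1.00 and Oas2 at 0.96 among the higher and 6 of 7 GTPases among the lower, Iigp1 at -2.13. Under GDC0941, 44 members were lower, all 7 GTPases included, and only Ifitm2 was higher, at 0.25, beside 23.1% of all genes lower and 18.9% higher.

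The inhibitors were next compared with each other. GDC0941 stood below PD325901 for 40 of the 49 members, where 20.9% of all genes were higher under PD325901, and above it for Ifitm2 and Ifitm3, where 30.7% of all genes were. GDC0941 was below RAD001 for 34 members and above it for none, beside 9.35% and 8.09% of all genes. Without RAD001 replicate 1 it was below RAD001 for 46 and above it for none, beside 10.5% and 8.81%. None of the 7 GTPases passed against RAD001 with all libraries, and 6 of 7 did without that library. Deviations of each GDC0941 library from its group mean correlated best with those of the RAD001 library of its own number. Pairing all libraries by number put GDC0941 below RAD001 for 41 members, beside 11.8% of all genes. These included 6 of the 7 GTPases (Gbp2, Gbp3, Ifi47, Igtp, Irgm1 and Irgm2). When RAD001 replicate 2 or replicate 3 was left out instead, GDC0941 was below RAD001 for 15 and 16 members, beside 5.56% and 6.18%. With all libraries, 28 members were called lower under GDC0941 than in each of the other 3 groups, Isg15, Irf7, Ifit1, Rsad2 and Cxcl10 among them. The share of all tested genes for this count was not computed. Of the members lower than DMSO, 10 were not called against RAD001.

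PD325901 and RAD001 differed from each other for 16 members. PD325901 was higher for 11, beside 20.8% of all genes, among them Ifit2 (log2 change 2.29, SE 0.41, adjusted p = 0.00075), Ifit3 (log2 difference 1.91) and Gbp3 (1.55). It was lower for 5, beside 29.4%: Ifitm1 (-2.08), Ifitm3 (log2 change -1.34, SE 0.13, adjusted p = 9.4e-06), Usp18 (-1.03), Ifitm2 (-0.79) and Ifi35 (-0.42). Without RAD001 replicate 1 these counts were 6 and 10, beside 19.7% and 27.2% of all genes. Without PD325901 replicates 1, 2 or 3 in turn PD325901 was higher for 6, 5 and 4, beside 17.7%, 18.2% and 17.4%. The doses of the compounds were not matched by potency in the labels, so the differences are between these exposures.

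The interferons themselves were scarcely measured in these cultures. Of 19 interferon genes, 15 were listed at 0 in all 12 libraries, none reached a mean of 1 FPKM, and Ifnb1 was at 0.348 FPKM or less throughout. A plasmacytoid dendritic cell list, a cell type known for interferon secretion, summed to 24.0 to 27.1 FPKM in DMSO, 22.7 to 23.3 under PD325901, 11.1 to 15.6 under RAD001 and 9.48 to 11.9 under GDC0941. Its largest value in DMSO was Cox6a2, at 15.1, 20.4 and 18.2 FPKM there and 1.9, 3.16 and 5.01 under GDC0941. Its defining marker Siglech was at 1.05, 1.48 and 1.56 FPKM in DMSO and 1.59, 3.82 and 3.38 under GDC0941. Of the 3 genes of this list that were tested, 2 were lower and 1 was higher under GDC0941. The part of this cell type in the result was not tested.

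Receptor and signalling genes were called in both directions under GDC0941. Of 18 tested, 2 were higher and 5 lower, beside 11.6% and 12.7% of all genes, with a median log2 change of 0.03. The receptor subunits Ifngr1 and Ifngr2 rose under GDC0941 (log2 changes 0.57 and 0.30), and Stat3 and the phosphatase Ptpn6 fell (-0.37 and -0.37).

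Under PD325901, 7 of the 18 receptor and signalling genes were higher and 4 lower, beside 18.4% and 28.2% of all genes. Under RAD001, 6 were higher and none lower, beside 15.4% and 15.9%. Without RAD001 replicate 1, 5 were higher and none lower, beside 15.3% and 16.3%, and Il28ra missed the threshold (adjusted p = 0.079). The type I receptor subunit Ifnar1 went in opposite directions, with a log2 change of -0.56 under PD325901 and 0.50 under RAD001. PD325901 also raised Ifngr1 (0.67), Ifnar2 (0.45) and Stat3 (0.31) and lowered the phosphatase Ptpn2 (-0.39). RAD001 raised Ifngr2 (0.62), Il28ra (0.47), Pias4 (0.29) and Jak1 (0.24).

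Of 20 tested genes that lead from nucleic acid sensing to interferon production, 4 were higher and 4 lower under GDC0941, beside 11.6% and 12.7% of all genes. Irf2, a repressor of interferon target genes, rose under GDC0941 (log2 change 0.70, SE 0.09, adjusted p = 0.00041) and under RAD001 (0.75), and the endosomal RNA receptor Tlr7 rose under GDC0941, RAD001 and PD325901 (0.83, 0.89 and 0.74). The DNA exonuclease Trex1, the kinase Ikbke and the adaptor Myd88 fell under GDC0941 (-0.88, -1.32 and -0.35). Under PD325901, 8 were higher and 2 lower, beside 18.4% and 28.2%, with Tlr8 (1.19), Tlr9 (1.23), the receptor chaperone Unc93b1 (0.68) and Irak4 (0.44) higher. Under RAD001, 4 were higher and 2 lower, beside 15.4% and 15.9%, with Irf5 (0.76) and Unc93b1 (0.59) higher and the adaptor Mavs (-0.47) lower. Without RAD001 replicate 1, 7 were higher and 3 lower, beside 15.3% and 16.3% of all genes. Irf8, Tlr8 and Trex1 joined the higher and Ikbke the lower.

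A further list of 62 interferon-induced genes outside the 51 was also mostly lower under GDC0941. Of 54 tested, none was higher and 35 were lower, beside 11.6% and 12.7% of all genes, with a median log2 change of -0.75. The 5 with the smallest adjusted p were the ISG15-activating enzyme Uba7 (log2 change -1.14, SE 0.10, adjusted p = 4.8e-05), the RNA helicase Mov10 (-1.13), the nuclear body protein Pml (-1.24), Slfn9 (-1.32) and the guanylate-binding protein Gbp9 (-2.30). Under PD325901, 3 were higher and 1 lower, beside 18.4% and 28.2%, with the lysosomal reductase Ifi30 (0.84), the chemokine Ccl5 (1.40) and Trim14 (0.46) higher and the mitochondrial nuclease Pnpt1 (-0.40) lower. Under RAD001, 4 were higher and 9 lower, beside 15.4% and 15.9%, with the checkpoint ligand Cd274 (0.84), Ifi30 (0.48) and Slfn4 (1.59) higher and Pnpt1 (-0.50) and Slfn9 (-0.96) lower. Without RAD001 replicate 1, 13 of the 54 were higher and 2 lower, beside 15.3% and 16.3% of all genes. The median went from -0.16 to 0.20. The 2 that were then lower were Pnpt1 and Slfn9.

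Markers of maturation differed between groups beside these results. Summed over the 7 neutrophil markers in the table, FPKM were 16478 to 17177 in DMSO, 34211 to 44809 under PD325901, 19063 to 23498 under RAD001 and 7491 to 11492 under GDC0941. Summed monocyte and macrophage markers, 10 listed and Lyz2 at 0 in all libraries, were 1272 to 1532 in DMSO, 1303 to 1749 under PD325901, 2200 to 2446 under RAD001 and 1821 to 2412 under GDC0941. A myeloid leukaemia cell list, which holds Ptprc and Itgam, summed to 454 to 464 FPKM in DMSO and 384 to 391 under PD325901. It summed to 924 to 971 under RAD001 and 589 to 714 under GDC0941. The part of these markers in the fall of the interferon-stimulated genes was not tested. B cell, erythroid, and stromal and endothelial markers summed to less than 9 FPKM in every library.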

How the data were processed

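The authors deposited 1 table of normalized FPKM for 12 libraries, made with TopHat2 2.0.4 and Cuffdiff on mm9, per the submitters' processing notes; the gene annotation is not given in the sources used here. Raw counts were not used here, so no count test was run. Values were transformed to log2(FPKM + 1), genes with a mean under 1 FPKM over the 12 libraries were left out, and 10305 genes were fitted in limma 3.58.1 (R 4.3.3) with 4 group means, a shared spread with 8 residual degrees of freedom and a mean trend. Adjusted p-values are Benjamini-Hochberg over all 10305 genes in each of 6 comparisons, and 0.05 was the threshold. The script was tested on simulated data.

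Same-numbered libraries were checked for pairing: their deviations from group means correlated above 0.1 in all 3 pairs for PD325901 and RAD001 against DMSO (lowest 0.183 and 0.201), for PD325901 against RAD001 (0.149) and for GDC0941 against RAD001 (0.309), but not for GDC0941 against DMSO (0.0354) or PD325901 against GDC0941 (-0.139). The labels give numbers only. The members and all lists were chosen with earlier results of these data known. All members are named; values in every library are given for those that passed against DMSO, the 2 most abundant of each role and those with RAD001 replicate 1 at least double the other RAD001 libraries, and some others. Of the pathway lists up to 5 passing genes with the smallest adjusted p per comparison are named; 1 further gene named by this rule is not reported here. Promoters are RefSeq sequences of GRCm38.p6, matched by symbol. Alternatives were other pseudocounts (0.1 and 5 FPKM), filters, scalings, designs and left-out libraries.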

Additional observations from a re-analysis of the deposited data

How the results depend on the processing

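The fall of the members under GDC0941 kept its direction in all settings run, with 34 to 44 of 49 lower when each library was left out in turn; the median log2 change was -1.56 and -1.06 with a pseudocount of 0.1 and 5 FPKM, -1.47 with a filter at 5 FPKM, -1.42 with library weights, -1.37 with replicates 2 and 3 only (1 member then higher) and -1.45 to -1.27 with 1 library left out. The counts under PD325901 and RAD001 depended on the setting, and the cause was not tested. The shares of all genes moved too. With library weights 28.9% were higher and 39.8% lower under PD325901, and 34.9% and 32.3% under RAD001. With replicates 2 and 3 only, they were 22% and 33.2% under PD325901 and 22.8% and 24.2% under RAD001. With only the 2 groups fitted, 21.1% were higher under PD325901 and 17% lower under RAD001. Under PD325901, 1 member was higher with a pseudocount of 5 FPKM, a filter at 5 FPKM, median-ratio scaling or quantile normalization, and 5 with only the 2 groups fitted; library weights gave 14 higher and 11 lower, replicates 2 and 3 only gave 17 and 12 with a median of 0.0927, and leaving out 1 library gave 0 to 4 higher and 2 to 6 lower. Under RAD001, 3 were lower without a filter and 1 when just the 2 groups were fitted, 1 was higher after quantile normalization, library weights gave 19 higher and 13 lower, replicates 2 and 3 only gave 18 and 14 with a median of 0.221, and leaving out 1 library gave 2 to 11 higher and 2 to 9 lower. With the replicate block the counts were 1 higher and 4 lower under PD325901 and 12 lower under RAD001; where the numbers did not pair the libraries, it gave 43 lower under GDC0941 against DMSO and 43 higher under PD325901 against GDC0941, and GDC0941 against RAD001 had 41 lower.

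Between inhibitors, PD325901 against RAD001 had 6 members higher both without a filter and when just the 2 groups were fitted, 12 lower with library weights, 13 lower with replicates 2 and 3 only, and 4 to 11 higher and 4 to 10 lower with 1 library left out. PD325901 against GDC0941 had a median of 1.03 with a pseudocount of 5 FPKM, 0 lower after quantile normalization and 1 to 2 lower with 1 library left out, and GDC0941 against RAD001 had 14 lower with only the 2 groups fitted and 15 to 46 with 1 library left out. Some members changed sign and passed: Ifit1 (log2 change 0.31) and Isg20 (0.35) under PD325901 with replicates 2 and 3 only, and under RAD001, with library weights and with replicates 2 and 3 only, Ddx58 (0.43 and 0.47), Oasl1 (0.45 and 0.54), Bst2 (0.31 and 0.33), Xaf1 (0.40 and 0.42) and Lgals3bp (0.36 and 0.41). Of all genes, 41.7% were lower for PD325901 against RAD001 with library weights and 33.2% with replicates 2 and 3 only. Fitting only the 2 groups put 4.41% lower for GDC0941 against RAD001 and 21.5% higher for PD325901 against RAD001. With FPKM and 3 libraries a group, read depth per gene is unknown, and differences near 1 FPKM were not resolved.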
